A study of Mus musculus with 10 samples.

Results

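The distal ileum of obese mice was examined here for 26 genes of cholesterol biosynthesis and of its control by SREBP2, out of 42989 genes in the deposited table. The genes were a fixed list of symbols, each matched to a single row, and 26 of 26 passed the filter for testing (5 or more libraries at 10 or more normalized counts). They comprised 19 enzymes of the route from acetyl-CoA to cholesterol and its branches, the 4 genes Srebf2, Scap, Insig1 and Insig2 of the sterol sensing system, and Stard4, Mylip and Acss2, which act in sterol transfer, receptor turnover and acetyl-CoA supply. All 10 donors were male wild-type C57BL/6J mice made obese by diet, 10 weeks old when gavage began. For 4 weeks, 5 of them were given taurodeoxycholic acid (TDCA), a secondary bile acid joined to taurine, by mouth at 10 mg/kg. The other 5 were given the same volume of water. RNA was taken from frozen pieces of whole distal ileum of about 20 mg, so every value mixes several cell types. Epithelium, muscle and immune cells are among them, and fewer cells of a type cannot be told apart from less RNA per cell.

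Cells make cholesterol from acetyl-CoA through mevalonate, farnesyl pyrophosphate, squalene and lanosterol. When sterols are scarce in the membrane of the endoplasmic reticulum, SCAP escorts SREBP2 to the Golgi, where it is cut, and the freed part switches on the genes of the pathway. When sterols are plentiful, INSIG proteins hold SCAP and SREBP2 back. The small intestine is a site of cholesterol synthesis as well as of uptake, and bile acids are needed for that uptake.

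The promoters of these genes are shown because SREBP2 acts at them together with NF-Y, which binds CCAAT, and Sp1, which binds GC boxes. RefSeq start windows (250 bases before to 50 after a start, GRCm38.p6) were at hand for 22 of the 26 genes, in 28 windows. Each of the following runs 5′ to 3′ on the strand of its gene. Capitals mark CCAAT or its reverse complement ATTGG, the GC box GGGCGG or its reverse complement CCGCCC, and the sterol element core TCACNCCAC. Hmgcs1, Cyp51, Insig1 and Srebf2 are given as genes whose levels moved together from mouse to mouse, Ggps1 as a window without a GC box and Acat2 as one without CCAAT.
Hmgcs1 (chr13:119690101-119690400, + strand): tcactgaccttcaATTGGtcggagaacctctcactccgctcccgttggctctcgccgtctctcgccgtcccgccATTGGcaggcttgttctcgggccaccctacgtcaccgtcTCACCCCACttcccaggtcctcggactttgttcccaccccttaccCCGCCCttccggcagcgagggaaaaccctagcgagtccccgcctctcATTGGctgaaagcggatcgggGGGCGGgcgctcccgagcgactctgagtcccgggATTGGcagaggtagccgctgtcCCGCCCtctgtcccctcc
Cyp51 (chr5:4104648-4104947, − strand): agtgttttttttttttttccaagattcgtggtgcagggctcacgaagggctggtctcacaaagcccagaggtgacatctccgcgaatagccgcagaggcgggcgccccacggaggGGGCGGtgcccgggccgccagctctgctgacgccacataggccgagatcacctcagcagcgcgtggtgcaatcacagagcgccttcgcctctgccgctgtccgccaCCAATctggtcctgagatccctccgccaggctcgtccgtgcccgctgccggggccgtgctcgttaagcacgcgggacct
Insig1 (chr5:28071162-28071461, + strand): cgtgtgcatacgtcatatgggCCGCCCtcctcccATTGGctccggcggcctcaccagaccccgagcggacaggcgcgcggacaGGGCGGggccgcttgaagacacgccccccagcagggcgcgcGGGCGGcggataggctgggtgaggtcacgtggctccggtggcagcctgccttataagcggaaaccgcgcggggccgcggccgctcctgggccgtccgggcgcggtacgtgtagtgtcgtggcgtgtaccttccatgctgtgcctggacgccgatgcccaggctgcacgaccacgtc
Srebf2 (chr15:82147019-82147318, + strand): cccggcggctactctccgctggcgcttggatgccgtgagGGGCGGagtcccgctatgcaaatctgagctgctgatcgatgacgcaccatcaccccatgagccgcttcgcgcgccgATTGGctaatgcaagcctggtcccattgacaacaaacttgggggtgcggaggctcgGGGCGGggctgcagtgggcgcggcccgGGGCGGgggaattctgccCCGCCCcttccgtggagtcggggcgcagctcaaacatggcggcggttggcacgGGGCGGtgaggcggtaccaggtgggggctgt
Ggps1 (chr13:14063439-14063738, − strand): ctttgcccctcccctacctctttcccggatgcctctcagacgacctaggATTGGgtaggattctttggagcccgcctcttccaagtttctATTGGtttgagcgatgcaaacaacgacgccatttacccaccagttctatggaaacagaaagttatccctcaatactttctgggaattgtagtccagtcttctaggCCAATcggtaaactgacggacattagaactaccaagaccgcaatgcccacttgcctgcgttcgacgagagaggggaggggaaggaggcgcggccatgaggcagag
Acat2 (chr17:12960676-12960975, − strand): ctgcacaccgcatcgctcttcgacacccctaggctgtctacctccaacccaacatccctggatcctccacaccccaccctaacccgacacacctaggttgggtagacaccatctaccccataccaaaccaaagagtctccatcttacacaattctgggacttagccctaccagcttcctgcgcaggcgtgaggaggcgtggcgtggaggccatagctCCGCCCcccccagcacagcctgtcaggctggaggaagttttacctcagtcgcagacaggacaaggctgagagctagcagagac

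On either strand CCAAT was found in 20 of the 28 windows (71.4%), against 37.4% of 32851 windows of all genes. GGGCGG was found in 23 of 28 (82.1%), against 35.7% of all windows. The windows of all genes were not limited to genes detected in these libraries, while the sterol genes all were. No set of windows matched for level was compared. By gene, each motif was present in 20 of the 22 genes. Of 44 CCAAT matches, 38 began in the 200 bases before the start. The E-box CACGTG lay in 6 of 28 windows (21.4% against 7.15%), those of Hsd17b7, Sc5d, Dhcr7, Scap and Insig1, which are 5 of the 22 genes. The 2 Scap windows overlap, and the same E-box site was counted in both, as was a GC box. The sterol element core TCACNCCAC lay in 1 of 28 windows, that of Hmgcs1 (3.57%, against 1.24% of all windows). The longer sterol element, which has an A before this core, lay in 0 of 28 (0.234% of all windows). Such matches describe letters in a window and show neither binding nor its absence.

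**Figure D1:**
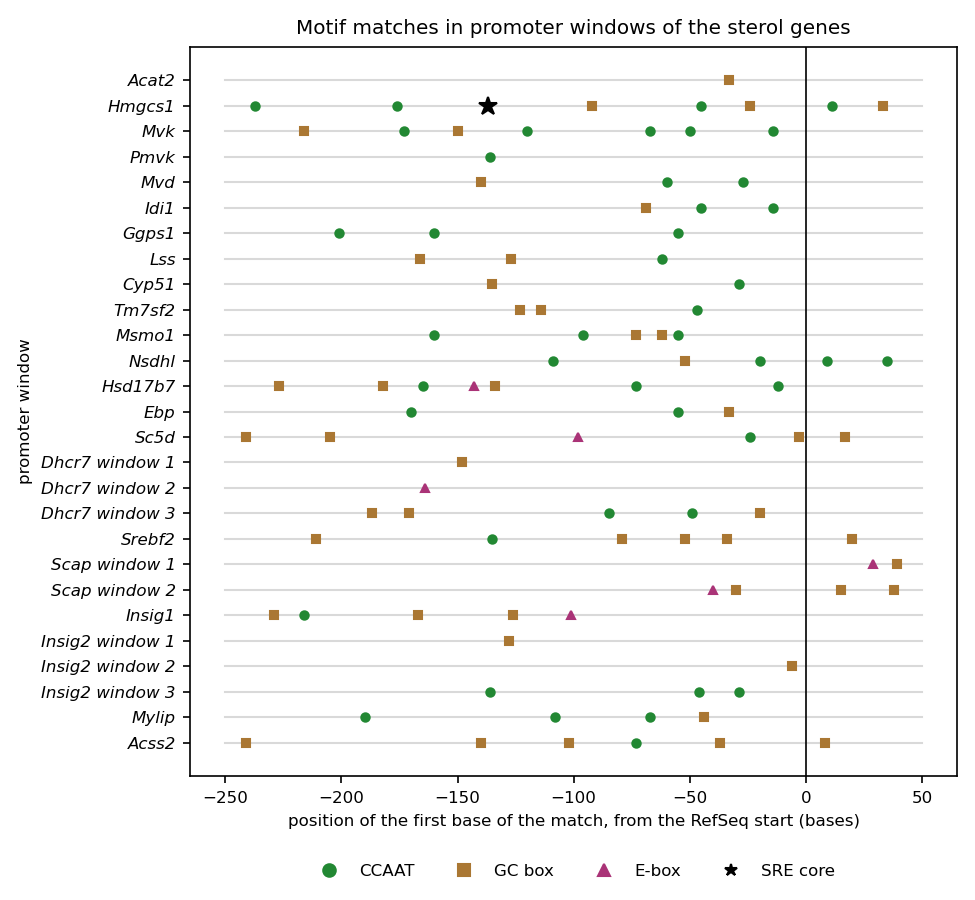
Positions of motif matches on both strands in the promoter windows of 22 sterol genes (x axis, bases from the RefSeq start; y axis, the 27 windows that held a match, with several windows for Dhcr7, Scap and Insig2). Green circles are CCAAT, brown squares the GC box, purple triangles the E-box and the star the sterol element core, which lies in the Hmgcs1 window only.

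The libraries held 27349003 to 44342245 reads on genes. Water 1 (−70.3) and TDCA 5 (56.8) stood at opposite ends of the first principal component, which held 28.5% of the variance, and water 3 had the fewest reads and the lowest share of mitochondrial ribosomal RNA (30.2%, against 40.5 to 48.1% in the other 9). Defining markers of the tissue were present: 15 of 15 enterocyte markers and 12 of 12 smooth muscle markers passed the filter. Of acinar pancreas markers 1 of 7 passed and of liver markers 2 of 7. Adipocyte markers (9 of 9) and B cell markers (7 of 7) also passed. The mean centred log2 level of the adipocyte markers ran from −1.06 in TDCA 2 to 1.46 in TDCA 3. That of the B cell markers ran from −2.29 in TDCA 3 to 3.08 in water 5. The part of fat or B cells in the sterol values was not tested.

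Levels were compared between genes as normalized counts per kb of annotated exon, means ± SD over all 10 mice. Exon length was the union over all annotated transcripts of a gene, so it can exceed that of a single transcript. For Fdps it was 4208 bases, with 1382 in the longest coding transcript. For Scap it was 7443 bases, with 4227 in the longest coding transcript. The order of the genes depends on this choice of length. Hmgcs1, which condenses acetyl-CoA with acetoacetyl-CoA to HMG-CoA, was highest at 2196 ± 403 per kb. Stard4, a soluble carrier of cholesterol between membranes, followed at 1837 ± 335 per kb and lay below Hmgcs1 in 9 of 10 mice. Both stood above Cyp51, the lanosterol demethylase, at 903 ± 239 per kb, Stard4 in 10 of 10 mice. Sc5d, the desaturase of a late sterol step, came next at 659 ± 106 per kb. The next genes in order, Insig1 (441 ± 117), Insig2 (411 ± 162), Msmo1 (391 ± 59.2), Srebf2 (355 ± 68.5), Sqle (328 ± 83.2), Mylip (316 ± 72.9) and Fdft1 (314 ± 81.1 per kb), had overlapping ranges. Insig1 exceeded Insig2 in 6 of 10 mice, so their order did not hold beyond the spread. The lowest were Scap (62.0 ± 8.87), Acss2 (56.7 ± 8.26) and Fdps (25.7 ± 6.47 per kb). The ranges of Scap and Acss2 overlapped, and those of Acss2 (42.6 to 66.8) and Fdps (19.2 to 39.1) did not.

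Fdps, which makes farnesyl pyrophosphate, lay below Acss2 in 10 of 10 mice per kb of exon. It also had the lowest mean normalized count of the 26 genes, at 108. Its transcript matched 6 other annotated genes at 90% identity or more over at least 200 bases, 5 of them processed pseudogenes, and Gm43738 covered 26.7% of its exon bases on the same strand. Its value is therefore uncertain. In GENCODE M21 such matches were found for 7 of the 26 genes, counting genes that overlap the same place in the genome. For Hmgcs1 and Scap the only match was a gene that overlaps their exons on the opposite strand. Acat2 shared 1477 bases with Acat3 (97.7% identity) and 445 with Tcp1 (98.7%), and Idi1 matched 3 processed pseudogenes whose mean normalized counts were at most 23.9. On the same strand, exons of Tm7sf2 overlap those of Vps51 over 12.1% of Tm7sf2. Vps51 held a mean of 339 normalized counts and Tm7sf2 295, so the Tm7sf2 value is uncertain too. Where strand is ignored, exons of Fdft1 also overlap those of Ctsb, at 6332 normalized counts on the opposite strand, over 18.3% of Fdft1. Those of Cyp51 overlap Akap9 over 3.76% of Cyp51. The sources used here do not say how the authors' counting treated shared or antisense reads.

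**Figure D2:**
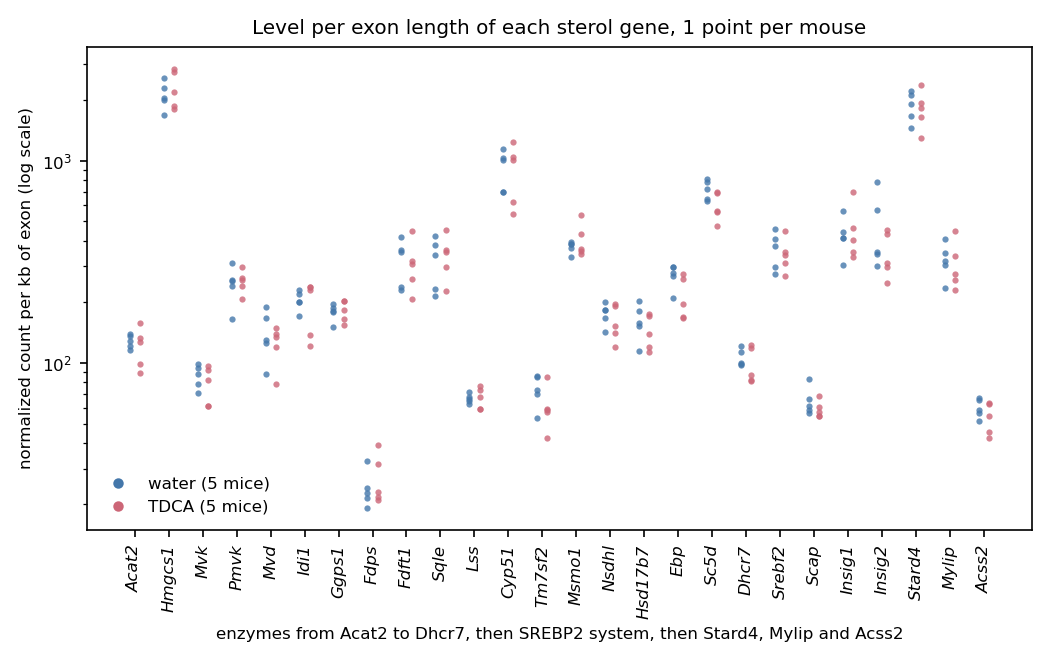
Level of each sterol gene as normalized counts per kb of exon (log scale), with 1 point per mouse, water in blue and TDCA in red (5 mice each). Hmgcs1 and Stard4 are highest, Fdps is lowest, and the points of both groups overlap for each of the 26 genes.

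None of the 26 genes was called different between TDCA and water ilea, and the ranges of the groups overlapped for each of them. By limma with adjustment over all 17507 genes tested, 0 of 26 passed an adjusted p of 0.05, where 0% of all genes did, and the smallest adjusted p of the 26 was 0.450. At an unadjusted p under 0.05 there was 1 of 26 (Ebp, lower), where 11% of all genes fell (5.01% lower, 5.95% higher). By edgeR's quasi-likelihood test 0 of 26 passed (0% of all genes), and 0 of 26 had an unadjusted p under 0.05, against 10% of all genes. Ranges without overlap occurred for 0 of 26 genes, against 1.4% of all genes. The log2 fold change, on the scale of log2(normalized count + 1), was below 0 for 18 genes and above 0 for 8, with a median of −0.10. Over all genes tested, 52.1% lay below 0 and the median was −0.01. In the authors' deposited table the smallest adjusted p among the 26 was 0.418, for Sc5d, while 25 of 13800 genes (0.181%) passed.

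The intervals of the main fit, taken gene by gene, bound the size of a difference. For 20 of the 26 genes the 95% interval of the log2 fold change from limma lay within 1.5-fold either way, as it did for 46.1% of all genes. For 26 of 26 it lay within 2-fold, as for 77.6% of all genes. The 6 genes whose interval reached past 1.5-fold were Mvd, Fdps, Cyp51, Tm7sf2, Ebp and Insig2.

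**Figure D3:**
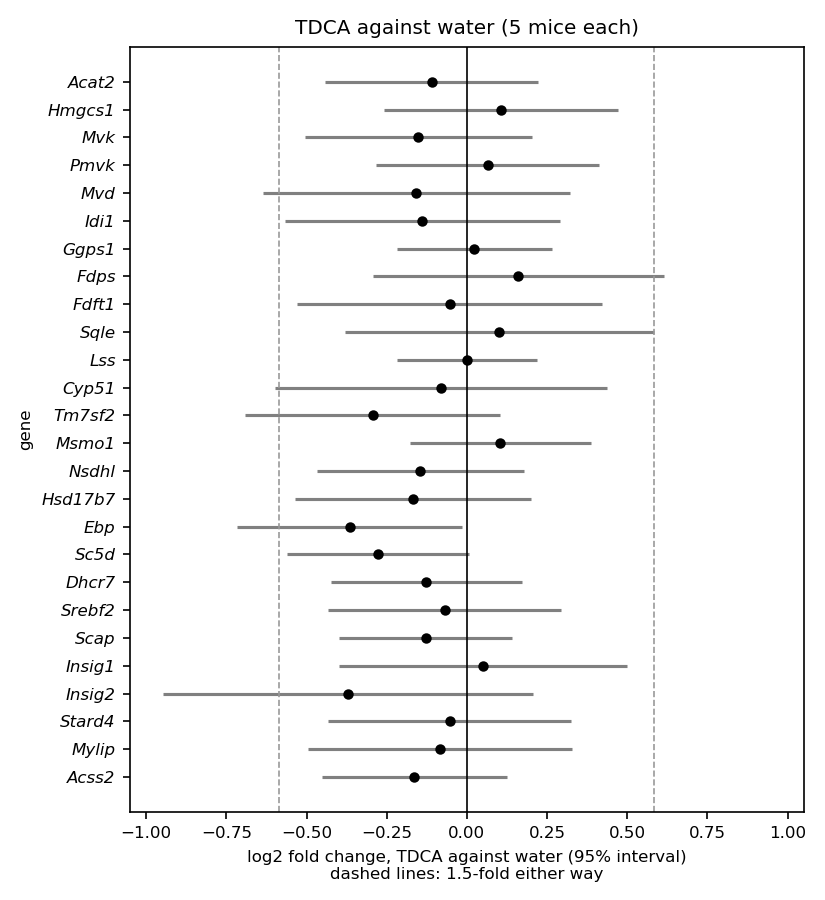
Log2 fold change of TDCA against water for each of the 26 genes (x axis), with points for the limma estimate and bars for its 95% interval, 5 mice per group. Dashed lines mark 1.5-fold either way. The Ebp interval alone lies wholly below 0 (−0.72 to −0.01), and its adjusted p was 0.450.

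Among the early enzymes, which lead to mevalonate and the isoprenoid units, log2 fold changes lay between −0.16 (Mvd) and 0.16 (Fdps). Hmgcs1 stood at 9115, 9336, 11704, 7702 and 10547 normalized counts in water 1 to 5, and at 8533, 8301, 12650, 13036 and 9973 in TDCA 1 to 5. TDCA 3 and TDCA 4 exceeded every water mouse, and TDCA 1 and TDCA 2 lay below 4 of the 5. The difference was 0.11 (SE 0.17, 95% interval −0.26 to 0.47, limma adjusted p = 0.832). Idi1, which isomerizes isopentenyl pyrophosphate, held 596 to 807 normalized counts in water mice and 422 to 835 in TDCA mice, with TDCA 1 and TDCA 2 below every water mouse. Ggps1, of the geranylgeranyl branch, was among the steadiest of the 26, at 841 ± 82.0 in water and 857 ± 104 in TDCA mice (SD, n = 5 each; 0.02, 95% interval −0.22 to 0.26). Acat2, the cytosolic thiolase that opens the route, and the kinases Mvk and Pmvk had log2 fold changes of −0.11, −0.15 and 0.06.

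Of the squalene enzymes, Sqle and Fdft1 had wide ranges in both groups and Lss narrow ones. Sqle, the squalene epoxidase and a flux-controlling step, stood at 1292, 1882, 2341, 1183 and 2116 normalized counts in water 1 to 5. In TDCA 1 to 5 it stood at 1654, 1251, 1957, 2505 and 1998. The highest mouse held 1.98 times the lowest among water mice and 2.00 times among TDCA mice (log2 fold change between groups 0.10, SE 0.22, limma adjusted p = 0.883). Fdft1, the squalene synthase, ranged from 966 to 1762 and from 875 to 1887 (−0.05, SE 0.22). Lss, which closes the sterol rings, had the smallest spread of the 26 genes, at 721 ± 37.4 in water and 724 ± 85.4 in TDCA mice (0.0008, SE 0.10).

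Among the enzymes after lanosterol, Cyp51 held 3092, 4449, 4570, 3070 and 5028 normalized counts in water 1 to 5 and 2763, 2395, 4432, 5442 and 4608 in TDCA 1 to 5. Water 1, water 4, TDCA 1 and TDCA 2 were low and the other 6 mice high, so each group held mice of both kinds (−0.08, SE 0.24, limma adjusted p = 0.913). Ebp, the sterol isomerase, held 617, 644, 689, 485 and 687 in water 1 to 5 and 451, 389, 599, 633 and 387 in TDCA 1 to 5. TDCA 1, 2 and 5 were below every water mouse and TDCA 3 and 4 were not, with a log2 fold change of −0.36 (SE 0.16, limma adjusted p = 0.450). Sc5d held 3963, 3072, 3819, 3135 and 3537 in water 1 to 5 and 2712, 2750, 3360, 3393 and 2317 in TDCA 1 to 5, with the same 3 TDCA mice below every water mouse (−0.28, SE 0.13, limma adjusted p = 0.463).

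The remaining late enzymes had log2 fold changes of −0.29 for the reductase gene Tm7sf2, −0.17 for Hsd17b7, −0.14 for Nsdhl, −0.13 for Dhcr7, which makes cholesterol from its last precursor on its branch, and 0.10 for Msmo1. Smooth muscle markers were all above 0 in the same contrast (12 of 12), with a summed level of 77087 to 223571 normalized counts in water and 171879 to 301253 in TDCA libraries. Enterocyte markers were below 0 in 14 of 15, with sums of 982324 to 1386850 and 505628 to 1184960, and 0 markers of either list were at 0 in all libraries. Crypt markers (14 of 15) and Paneth cell markers (9 of 9) were also below 0, where 52.1% of all genes were. No marker passed the test. When the smooth muscle score entered the fit, the log2 fold change was −0.16 for Ebp, −0.042 for Sc5d and −0.067 for Insig2, smaller in size than without it. It was −0.30 for Tm7sf2, close to its value without the score, and larger in size for Mvk (−0.26), Mylip (−0.20), Hmgcs1 (0.28) and Fdps (0.35). In that fit 16 of the 26 genes lay below 0 and 10 above; the part of tissue make-up in these values was not tested further.

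In the sensing system, Srebf2, which encodes SREBP2, held 1986, 2709, 3298, 2133 and 2952 normalized counts in water 1 to 5 and 2465, 1939, 2546, 3230 and 2236 in TDCA 1 to 5. Its group ranges nearly coincided (−0.07, SE 0.17, limma adjusted p = 0.894). Insig1, itself a target of SREBP2, held 1285, 1377, 1736, 945 and 1285 in water 1 to 5 and 1093, 1033, 1443, 2174 and 1258 in TDCA 1 to 5. TDCA 4 was above every other mouse and water 4 below every other (0.05, SE 0.21, limma adjusted p = 0.937). Insig2, a paralog known from liver to be regulated differently, held 1200, 1048, 2724, 1233 and 1981 in water 1 to 5 and 1514, 1040, 1080, 1572 and 867 in TDCA 1 to 5. Water 3 held 2.60 times the value of water 2, the widest ratio within a group among the 26 genes. The log2 fold change of Insig2 was −0.37 (SE 0.26, limma adjusted p = 0.605), and −0.16 without water 3. The escort gene Scap was at 484 ± 81.5 in water and 440 ± 44.0 in TDCA mice (SD, n = 5 each; −0.13, SE 0.12).

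Stard4 held 8078 to 12266 normalized counts in water mice and 7246 to 13246 in TDCA mice, with TDCA 5 lowest and TDCA 3 highest (−0.05, SE 0.17). Mylip, a ubiquitin ligase gene induced by the oxysterol receptor LXR that sends lipoprotein receptors to degradation, held 757 to 1323 and 741 to 1454 (−0.08, SE 0.19). Acss2, which makes acetyl-CoA from acetate, was at 606 ± 65.0 in water and 546 ± 96.5 in TDCA mice (SD, n = 5 each; −0.16, SE 0.13, limma adjusted p = 0.653).

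Within a group, the highest mouse held 1.14 to 2.60 times the lowest among water mice (median over the 26 genes 1.52) and 1.26 to 2.27 times among TDCA mice (median 1.65). The median within-group SD of the log2 level was 0.28 for the 26 genes and 0.30 for all genes tested. Water 3 was the highest water mouse for 15 of the 26 genes (57.7%), where it was so for 22.3% of all genes tested. TDCA 4 was the highest TDCA mouse for 18 of 26 (69.2%, against 17.4% of all genes), and TDCA 2 the lowest for 13 of 26 (50%, against 20.3%). Water 4 was the lowest water mouse for 10 of 26 (38.5%, against 18.9%). As a mean over the 26 genes of the centred log2 level, water 1 to 5 stood at −0.11, 0.06, 0.26, −0.12 and 0.13, and TDCA 1 to 5 at −0.13, −0.36, 0.10, 0.26 and −0.10.

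**Figure D4:**
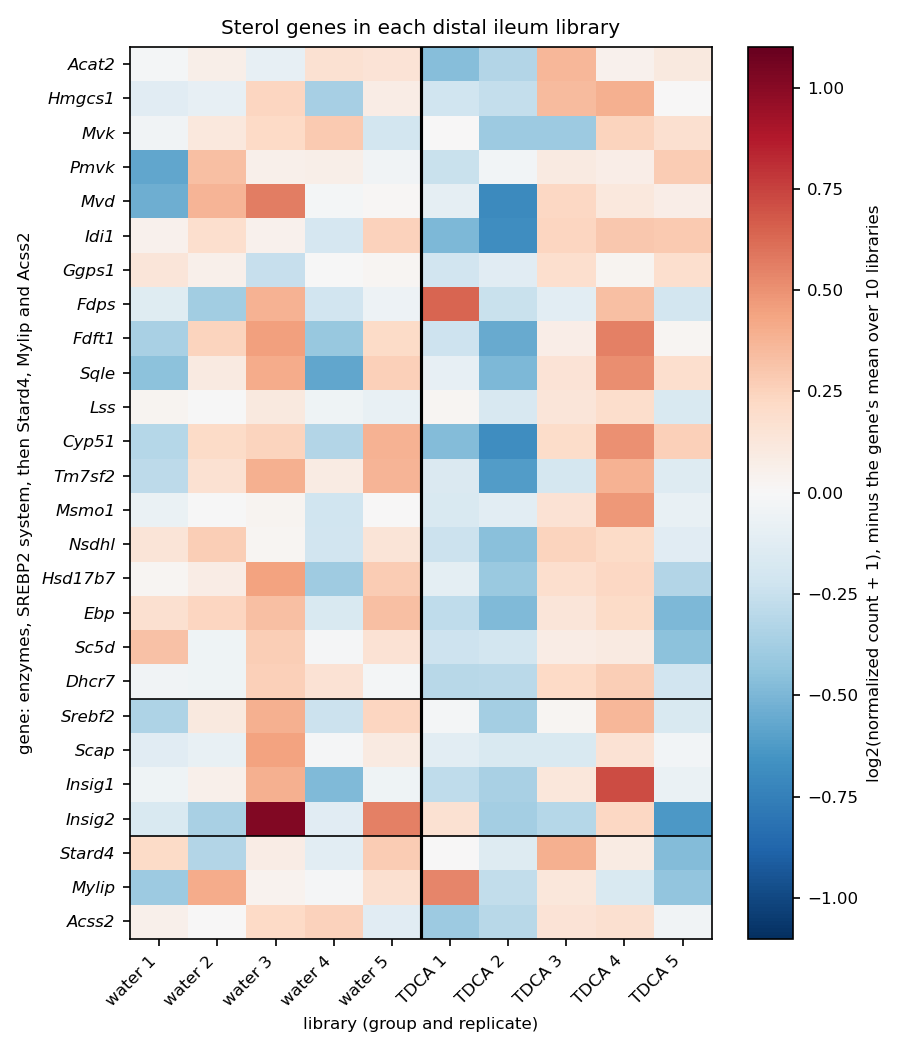
Log2(normalized count + 1) of each of the 26 genes (rows) in each library (columns, water left and TDCA right of the line), minus the gene's mean over the 10 libraries. Columns of mostly 1 colour, red in water 3 and TDCA 4 and blue in TDCA 2, show genes that stood high or low together in a mouse; Ggps1 and Mylip depart from that pattern.

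Among the other 25 sterol genes, those with the highest correlation with Hmgcs1 were Insig1, Msmo1, Sqle, Fdft1, Cyp51, Hsd17b7 and Srebf2, in that order. Against Hmgcs1, over the log2 levels of all 10 mice, Pearson's r was 0.89 for Insig1 (Spearman's rho 0.93, permutation p = 0.00026 and 0.00025, adjusted p = 0.379 and 0.413). It was 0.87 for Msmo1 (rho 0.95, permutation p = 3e-05 and 0.00014, adjusted p = 0.175 and 0.350). It was 0.86 for Sqle (rho 0.92, permutation p = 0.00214 and 0.00049, adjusted p = 0.781 and 0.452). Fdft1 (r 0.83, rho 0.85, permutation p = 0.00408 and 0.003) and Cyp51 (r 0.81, rho 0.81, permutation p = 0.00638 and 0.00708) followed, with an adjusted p of 0.941 for both r. Hsd17b7 was next (r 0.78, rho 0.82, permutation p = 0.0105 and 0.00586, adjusted p = 1.00 and 0.903). The p-values were two-sided and adjusted over all 17506 genes paired with Hmgcs1. After that adjustment 0 of 25 sterol genes and 0% of all genes passed. At an unadjusted permutation p under 0.05, 11 of the 25 were positively related to Hmgcs1, where 2.75% of all genes were positively related. At the same p, 0 of the 25 were negatively related, and the share of all genes negatively related was not counted. Insig1 ranked 19 and Srebf2 170 among all 17506 genes by r. Of the 50 genes with the highest r, which are 0.286% of all genes, 3 were of the 25.

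Without TDCA 3 and TDCA 4, the mice farthest from the median of Hmgcs1, r was 0.92 for Insig1, 0.89 for Msmo1, 0.89 for Sqle, 0.88 for Fdft1 and 0.81 for Cyp51. With the group means removed it was 0.90, 0.87, 0.86, 0.87 and 0.86. Lss (r 0.67, rho 0.64, permutation p = 0.0357 and 0.055) was at 0.31 without these 2 mice, so its relation rests on them. So does that of Dhcr7 (r 0.64, rho 0.67, permutation p = 0.0494 and 0.0392), which was at 0.38 without them. Srebf2 was at 0.74 over all mice (rho 0.78, permutation p = 0.0166 and 0.0106, adjusted p = 1.00 and 0.970) and 0.78 without them. Mvk (r −0.03, rho −0.02, permutation p = 0.939 and 0.974), Mylip (r −0.04, rho 0.05, permutation p = 0.913 and 0.892) and Ggps1 (r 0.21, rho 0.33, permutation p = 0.555 and 0.349) showed little relation to Hmgcs1. Over the 325 pairs among the 26 genes the median r of deviations from the group mean was 0.48, against −0.005 over all pairs of genes tested, a description in which all pairs share the same 10 libraries and their scaling.

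Marker scores, the mean centred log2 level of a marker list, are given by mouse, and their correlation with the sterol genes was not computed. The smooth muscle score in water 1 to 5 was −1.14, 0.43, −0.72, 0.18 and −0.46, and in TDCA 1 to 5 it was 0.39, 0.47, −0.042, 0.066 and 0.83. Water 1 had the lowest score with sterol genes below their mean, and water 3 the next lowest with sterol genes above it. The goblet score was 0.18, −0.085, 0.44, −0.39 and 0.10 in water 1 to 5, and −0.13, −0.095, 0.16, 0.30 and −0.48 in TDCA 1 to 5. The goblet score was highest in water 3 and TDCA 4, the mice with the highest mean over the sterol genes. Among water mice both were lowest in water 4. Among TDCA mice the goblet score was lowest in TDCA 5, while the sterol mean was lowest in TDCA 2. The 8 goblet markers were all detected, summing to 251086 to 518229 normalized counts in water and 218666 to 400190 in TDCA libraries. The enterocyte score was 0.46, 0.026, 0.16, 0.26 and 0.098 in water 1 to 5, and −0.099, 0.34, 0.11, −0.21 and −1.14 in TDCA 1 to 5, higher in TDCA 2 than in TDCA 4. The part of cell make-up in the movement of the sterol genes was not tested.

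**Figure D5:**
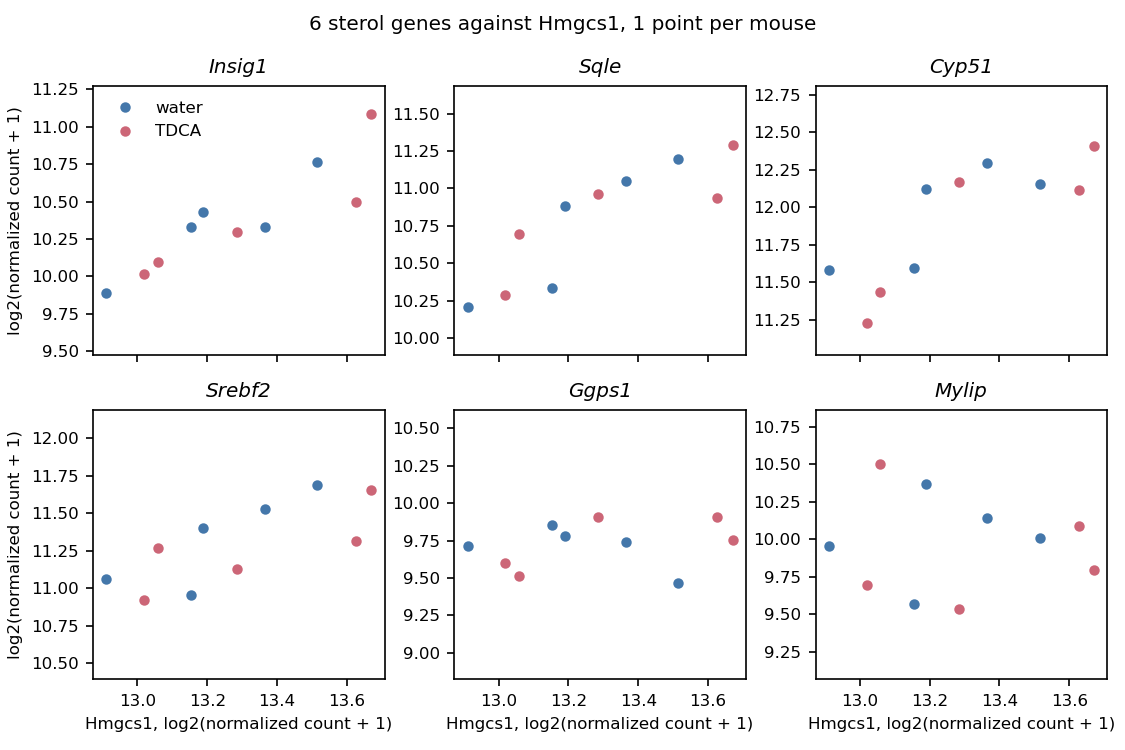
Log2(normalized count + 1) of 6 genes against that of Hmgcs1, with 1 point per mouse (water blue, TDCA red) and y axes of equal span. Insig1 (r 0.89), Sqle (0.86), Cyp51 (0.81) and Srebf2 (0.74) rise with Hmgcs1 across both groups, while Ggps1 (0.21) and Mylip (−0.04) show little relation.

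Related genes outside the 26 were counted in lists chosen with earlier results of these data known. No gene of these lists passed limma's test. Among 22 genes of SREBP transport, cleavage and turnover, 16 lay below 0 and 6 above (median −0.10). Over all genes tested, 52.1% lay below 0. At an unadjusted p under 0.05, 3 of the 22 were lower and 0 higher, where 5.01% of all genes were lower and 5.95% higher. The smallest p belonged to Ubxn8, an adaptor of the endoplasmic reticulum (360 ± 48.1 normalized counts in TDCA against 468 ± 51.9 in water; −0.38, SE 0.12, limma adjusted p = 0.448), and Tmem97, a sterol-responsive membrane protein gene (133 ± 53.4 in TDCA against 192 ± 32.1 in water; −0.59, SE 0.23, limma adjusted p = 0.448). Of 16 genes that use farnesyl and geranylgeranyl pyrophosphate or act further along those branches, 13 lay below 0 (median −0.07, 1 lower and 0 higher at an unadjusted p under 0.05). Among those 13 were the farnesyltransferase subunit gene Fnta (−0.25, SE 0.11, limma adjusted p = 0.448) and the dolichol kinase gene Dolk (−0.34, SE 0.18, limma adjusted p = 0.494).

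Of 16 genes of cholesterol esterification, lysosomal release and transfer, 10 lay below 0 (median −0.07, 0 lower and 2 higher at an unadjusted p under 0.05). For this list and those that follow, the shares of all genes were 52.1% below 0, and 5.01% lower and 5.95% higher at that p. Stard5, a carrier of the same domain family as Stard4, held 107, 252, 211, 215 and 171 normalized counts in water 1 to 5 and 256, 263, 510, 350 and 271 in TDCA 1 to 5. Every TDCA mouse was above every water mouse, with water 2 and TDCA 1 close to each other (0.79, SE 0.25, limma adjusted p = 0.448). Ranges without overlap, in either direction, occurred for 1 of the 16 genes and for 1.4% of all genes. Osbpl5, an oxysterol-binding protein relative, had a log2 fold change of 0.30 (SE 0.14, limma adjusted p = 0.455), and of 0.19 without water 1. Of 11 tested genes of oxysterols and LXR, 8 lay below 0 (median −0.21, 3 lower and 0 higher at an unadjusted p under 0.05), with the phospholipid acyltransferase gene Lpcat3 at −0.55 (SE 0.18) and Nr1h3, which encodes LXRα, at −0.39 (SE 0.14). Of 16 genes of fatty acid synthesis under SREBP1, 13 lay below 0 (median −0.16), while 1 was lower and 3 were higher at an unadjusted p under 0.05, with the malic enzyme gene Me1 at −0.93 (SE 0.29) and Gpam, of glycerolipid synthesis, at 0.40 (SE 0.16), the adjusted p being 0.448 by limma for these 4 genes. When the smooth muscle score entered the fit, the values were −0.26 for Lpcat3, −0.24 for Nr1h3, 0.16 for Gpam, 0.048 for Osbpl5, −0.19 for Ubxn8 and −0.19 for Dolk, each moved by over 1.5 times. Nr1h3 was also at −0.26 without TDCA 5.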

How the data were processed

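Total RNA of 10 distal ilea was sequenced after a ribosomal depletion kit. The authors deposited 2 tables. One holds normalized counts per gene, a signal scaled by library. Divided by the smallest value of its library, every value (100%) came out whole within 1e-04, which gave back the reads. The other, per the file headers, holds the authors' mean signal, log2 fold change, standard error, test score, p-value and adjusted p-value. The submitters' processing notes name GRCm39, MultiQC 1.9 and DESeq2 1.28.0. The sources used here do not name an aligner, counter, strand setting or annotation.

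Groups were compared with limma 3.58.1 in R 4.3.3 (trend and robust options, two-sided) on log2(normalized count + 1) of 17507 genes, with Benjamini-Hochberg adjustment at 0.05. The edgeR quasi-likelihood test (edgeR 4.0.16) and DESeq2 (1.42.0) on recovered reads were alternatives, beside other pseudocounts, filters and scaling, a replicate block, libraries left out and a smooth muscle covariate. DESeq2 run here with the authors' size factors differed from their adjusted p by over 0.001 for 0 genes, but only after its alpha option was set to 0.05 because a run at the default had not matched. The tests were first run on simulated counts.

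The members, lists, named genes (all 26, and the 2 smallest p of each related list) and tests were chosen with earlier results of these data known. Correlations with Hmgcs1, the gene with the highest level per length, were added after the data were seen and used 100000 permutations, whose smallest p is 1e-05. Scores are mean centred log2 levels of a marker list. Exon lengths and copies came from GENCODE M21 by gene identifier and promoter windows from RefSeq, both GRCm38. Replicates are separate mice. A count of 0 allows up to 3 reads, which is 2.57 to 3.60 normalized counts, for counting error only. The sample descriptions share replicate numbers between groups, and the titles carry other numbers, some also shared. Neither is stated to pair animals.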

Additional observations from a re-analysis of the deposited data

How the results depend on the processing

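In 20 alternative settings 0 of the 26 genes were called, the smallest adjusted p of any setting being 0.318. Over all genes 0 were called in each setting except DESeq2, which called 25, 0 of them among the 26. With the replicate number as a block, 0 of the 26 and 0 of all genes were called (median −0.10, smallest adjusted p = 0.555). Mice sharing the replicate number, which comes from the sample descriptions, did not deviate together (correlations of −0.15 to 0.17). No other call changed. The sample titles carry different numbers, some also shared between groups. By title, water 3 shares its number with TDCA 4, and mice matched by title were not compared.

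Directions near 0 were not stable. Without both water 1 and TDCA 5, Pmvk (−0.13), Sqle (−0.030) and Stard4 (0.11) turned. With the smooth muscle covariate Pmvk (−0.19), Fdft1 (0.0076), Hsd17b7 (0.059) and Stard4 (0.26) turned. With single libraries left out 14 of the 26 kept their sign. The others ranged from −0.071 to 0.16 for Pmvk, −0.23 to 0.014 for Idi1, −0.038 to 0.079 for Ggps1, −0.20 to 0.078 for Fdft1, −0.030 to 0.24 for Sqle, −0.048 to 0.045 for Lss, −0.21 to 0.081 for Cyp51, −0.0014 to 0.16 for Msmo1, −0.17 to 0.021 for Srebf2, −0.12 to 0.15 for Insig1, −0.16 to 0.060 for Stard4 and −0.23 to 0.013 for Mylip. The median of the 26 ranged from −0.19 (without TDCA 4) to −0.01 (without TDCA 2), and the number below 0 from 22 to 14. The cause was not tested. With TMM scaling the median of all genes moved by 0.02. In alternatives added after the data were seen, the correlations with Hmgcs1 gave 0 genes past adjustment in each of 15 settings.

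With 5 mice per group, the 95% intervals of the main fit, taken gene by gene, lay within 2-fold for each of the 26 genes. They lay within 1.5-fold for 20, and smaller differences are not excluded by them. Intervals were not counted in the other settings.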

Other observations

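Genes outside the list whose levels ran closest to Hmgcs1 over the 10 mice are named here after their values were seen. They were Prom1, which encodes the membrane protein prominin (r 0.96, rho 0.99, permutation p = 1e-05 for each, the smallest the permutations can give, adjusted p = 0.175 and 0.0875), Tspan1, a tetraspanin gene (r 0.95, rho 0.93, permutation p = 5e-05 and 0.00038, adjusted p = 0.175 and 0.438), Lypd8, which encodes a secreted epithelial protein that binds flagella (r 0.95, rho 0.95, permutation p = 3e-05 and 0.00013, adjusted p = 0.175 and 0.350), and the cytochrome P450 gene Cyp2c55 (r 0.95, rho 0.89, permutation p = 7e-05 and 0.00131, adjusted p = 0.204 and 0.620). Without TDCA 3 and TDCA 4 their r was 0.98, 0.93, 0.94 and 0.91. Insig1 ranked 19 and Msmo1 25 in the same order of 17506 genes, Sqle 35, Fdft1 52 and Cyp51 66.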
